A study of Mus musculus with 4 samples.

Results

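Receptor-type protein tyrosine phosphatases were examined in structures cut by laser from the fetal mouse kidney. The members were 10 genes chosen by symbol, Ptprj, Ptpro, Ptprk, Ptprm, Ptpru, Ptprf, Ptprs, Ptprd, Ptprg and Ptprz1, of 18193 genes that carried at least 1 probe set with a single symbol. The set was put together because Ptprj and Ptpro differ in opposite directions between the structures. All member values from this comparison are therefore given as a description, with no test, and they support nothing about the choice. The 10 genes were read by 37 probe sets (groups of short oligonucleotides on the array that read 1 transcript region), and all 10 passed the filter on dim signal described below, Ptprj only through its collecting duct value.

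For the cortical collecting duct, a ureteric bud derivative that gathers urine from the nephrons, there was 1 array, which bears replicate number 3. For the loop of Henle anlage, the forerunner of a nephron segment that includes the thick ascending limb, there were 3 arrays with replicate numbers 1 to 3. All 4 samples came from wild-type CD-1 mice, an outbred stock, at stage E15.5 (counted in days after mating, Theiler stage 23), with the sex given as unknown. Each array held RNA from about 50 laser-captured sections pooled from 5 kidneys and amplified over 2 rounds. The labels do not say whether pools shared kidneys or litters, nor how the structures were recognised, so the spread between arrays may be partly technical. With 1 collecting duct array its own spread is unknown. A captured section holds more than 1 cell type, and fewer cells of a type and less RNA per cell cannot be told apart.

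These enzymes span the cell membrane and remove phosphate from tyrosines, opposing the receptor tyrosine kinases that drive kidney growth. Their extracellular parts resemble adhesion molecules, and the families differ in them. Ptprj and Ptpro carry fibronectin type III repeats, the LAR family (Ptprf, Ptprs and Ptprd) adds immunoglobulin domains, Ptprk, Ptprm and Ptpru have a MAM domain that in Ptprk and Ptprm mediates cell-to-cell adhesion, and Ptprg and Ptprz1 have a domain like carbonic anhydrase. In the kidney Ptpro is best known from podocytes, the filtering cells of the glomerulus, and mice that lack both Ptprf and Ptprs have defects where the ureter joins the bladder.

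Values below are log2 of the normalized signal plus an offset of 109.6 signal units, for the brightest probe set of a gene unless another is named. A difference is the collecting duct value minus the mean of the anlage arrays. Genes whose mean over the 4 arrays lay under 8.416 were not tested, which left 12642 genes. Levels of different probe sets were not set against each other, because probe sets differ in how brightly they read.

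The arrays and the labelled structures are described first. The marker lists were chosen with earlier results of these data known, so they are no independent check of the labels. Of 12 tested collecting duct markers 12 had a positive difference, with a median of 2.35. For 10 the collecting duct exceeded every anlage array, as for 17.3% of all tested genes. Scnn1g, with an anlage mean of 8.07, passed the limit only through the collecting duct array. Of 14 loop of Henle markers 13 lay below all 3 anlage arrays, with a median of −2.83, as did 24.3% of all tested genes. The 3' to 5' signal ratio of the Gapdh control, a measure that rises when RNA is cut short, was 12.0 for the collecting duct, against 10.3, 54.1 and 26.02 in anlage arrays 1, 2 and 3. Summed normalized signal of the collecting duct markers was 124242 in the collecting duct, against 13576, 48905 and 11675 in anlage arrays 1, 2 and 3, and that of the loop markers was 22818, against 175483, 57051 and 125828. Much of the collecting duct marker sum in anlage array 2 was Calb1. On the log2 scale described above, Calb1 read 14.86 there, against 13.87 in the collecting duct and 11.50 and 11.30 in anlage arrays 1 and 3. Anlage array 2 thus stood apart in the ratio and, on both marker sums, was the anlage array closest to the collecting duct. The differences of Ptprj and Ptpro are also given without that array. At an adjusted p of 0.05 limma found 0 of the 12642 genes higher (0%) in the collecting duct and 0 lower (0%), and 431 (3.41%) had an unadjusted p under 0.05. Without anlage array 2 it called 3 higher and 11 lower, and no receptor phosphatase described here was among the 14.

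Ptprj was higher in the collecting duct in 1 of its 4 probe sets, the one taken for the gene. Ptprj, also called DEP-1 or CD148, removes phosphate from growth factor receptors such as Met and the VEGF receptor Kdr. Its brightest probe set, 1427629_at, read 12.06 in the collecting duct, against 9.35, 7.70 and 8.07 in anlage arrays 1, 2 and 3. The collecting duct value stood 2.71 above the highest anlage value, so the groups did not overlap. The anlage mean was 8.37 ± 0.87 (SD, n = 3), and the difference of 3.69 corresponds to 12.9-fold on this scale. In deposited signal units the same probe set read 4229 in the collecting duct, against 741, 51.7 and 156 in anlage arrays 1, 2 and 3. Because the anlage side was dim, the size of the difference followed the offset, from 2.90 to 4.14 with a larger or a smaller one. It was 3.14 without anlage array 2.

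This probe set was the brightest of Ptprj, and passed the limit of 8.416, only through the collecting duct array, since its anlage mean of 8.37 lay under that limit and under the anlage mean of 1425587_a_at, 8.57. The other probe sets of Ptprj did not show a difference of that size. Probe set 1425587_a_at read 9.55 in the collecting duct, against 8.41, 7.29 and 10.003 in anlage arrays 1, 2 and 3. Here the groups overlapped, anlage array 3 being the highest of the 4 arrays. The remaining probe sets, 1425588_at and 1455030_at, averaged under 8.416 over the arrays and differed by 0.28 and −0.03 (differences on the log2 scale). The mean of all 4 probe sets differed by 1.23. Where each probe set lies along the transcript was not used here.

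Ptpro differed the other way. Its brightest probe set, 1417676_a_at, read 10.02 in the collecting duct, against 12.00, 12.67 and 11.51 in anlage arrays 1, 2 and 3. The gap between the collecting duct value and the lowest anlage value was −1.497, so the groups did not overlap. The anlage mean was 12.06 ± 0.58 (SD, n = 3) and the difference −2.04, a 4.12-fold lower value in the collecting duct. Without anlage array 2 the difference was −1.61. The second probe set of Ptpro, 1425863_a_at, was dim on average and read 8.16 in the collecting duct, against 8.06, 8.58 and 7.63 in the anlage arrays, so that the groups overlapped there. The mean of both probe sets differed by −0.98.

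Podocyte markers that were tested overlapped between the structures. Of 10 markers listed, 7 were tested. The collecting duct value lay within the anlage range for all 7, where 41.6% of all tested genes lay outside it on either side. The difference was positive for 3 and negative for 4, with a median of −0.15. Nphs1, the slit diaphragm protein nephrin, averaged under the limit and was not tested. It read 7.79 in the collecting duct, against 8.51, 8.86 and 8.02 in anlage arrays 1, 2 and 3. It lay below all 3, with a difference of −0.68. The summed normalized signal of the podocyte markers was 59089 in the collecting duct, against a range of 39963 to 73298 signal units in the anlage arrays. Much of that sum was Cdkn1c, a cell cycle inhibitor that is not particular to podocytes, and without it the sum was 14726 in the collecting duct, against 9446, 32743 and 14656 signal units in anlage arrays 1, 2 and 3. Podxl, the surface sialomucin podocalyxin, read 11.91 in the collecting duct, against 11.17, 13.57 and 11.95 in the anlage arrays. Within the anlage, array 2 was the highest for Ptpro, and 5 of the 7 podocyte markers were highest of the 4 arrays there. So were 5 of 6 tested markers of cap mesenchyme (nephron progenitor cells), 4 of 8 endothelial markers and 39.0% of all tested genes. Such a peak was seen outside the podocyte list as well, and these counts do not say where the Ptpro signal came from. The part of podocyte RNA in the Ptpro values was not tested.

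The sequences just upstream of the annotated starts of these opposed genes are shown for their difference in CG dinucleotides, which are in capitals. They are the 250 bases before each start, 5′ to 3′ on the gene's strand, from RefSeq on build GRCm38.p6. Ptprj has an outer start preceded by chr2:90580596-90580845 (minus strand) and an inner start preceded by chr2:90479175-90479424 (minus strand), and the start of Ptpro is preceded by chr6:137252049-137252298 (plus strand).
Ptprj outer start: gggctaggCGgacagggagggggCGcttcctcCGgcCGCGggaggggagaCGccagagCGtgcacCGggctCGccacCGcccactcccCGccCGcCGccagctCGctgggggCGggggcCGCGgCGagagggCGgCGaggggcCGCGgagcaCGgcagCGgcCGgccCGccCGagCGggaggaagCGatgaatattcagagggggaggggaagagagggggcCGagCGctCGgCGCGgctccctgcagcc
Ptprj inner start: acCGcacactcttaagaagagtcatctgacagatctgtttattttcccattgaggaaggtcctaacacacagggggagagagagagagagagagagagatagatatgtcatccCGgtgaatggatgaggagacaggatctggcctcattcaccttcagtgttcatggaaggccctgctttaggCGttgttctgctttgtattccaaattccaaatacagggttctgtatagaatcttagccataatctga
Ptpro start: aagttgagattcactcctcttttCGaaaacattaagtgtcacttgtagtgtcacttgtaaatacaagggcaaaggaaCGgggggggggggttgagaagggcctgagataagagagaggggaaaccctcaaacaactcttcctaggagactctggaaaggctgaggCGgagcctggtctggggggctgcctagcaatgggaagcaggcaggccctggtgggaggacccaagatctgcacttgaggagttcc
The outer Ptprj window held 34 CG dinucleotides, more than 96.5% of the 32851 windows of this length in the table, while the inner Ptprj window and the Ptpro window held 3 each, more than 29.0%. Of all such windows 92.1% held at least 1 CG, with a median of 6. Among the other members the count ran from 6 in a window of Ptprg to 38 in that of Ptprk, and windows for 9 of the 10 genes were matched. The GATA-type motif AGATAA, searched on both strands, was found in 1 of 12 member windows, that of Ptpro, and in 9.99% of all windows. Other spellings of this motif were not searched, and the inner Ptprj window holds AGATAG. The AP-2-type motif GCCNNNGGC, which reads the same on both strands and was counted once, was found in 4 of 12 member windows, none of them of Ptprj or Ptpro, and in 13.7% of all windows. The fixed bases of this motif are all G or C, and the 4 windows were 68.4% to 81.2% G and C. The Ptprk and outer Ptprj windows, both at 79.2%, held none. The share among windows of like composition is not given. The arrays do not say which start of Ptprj was in use.

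**Figure D1:**
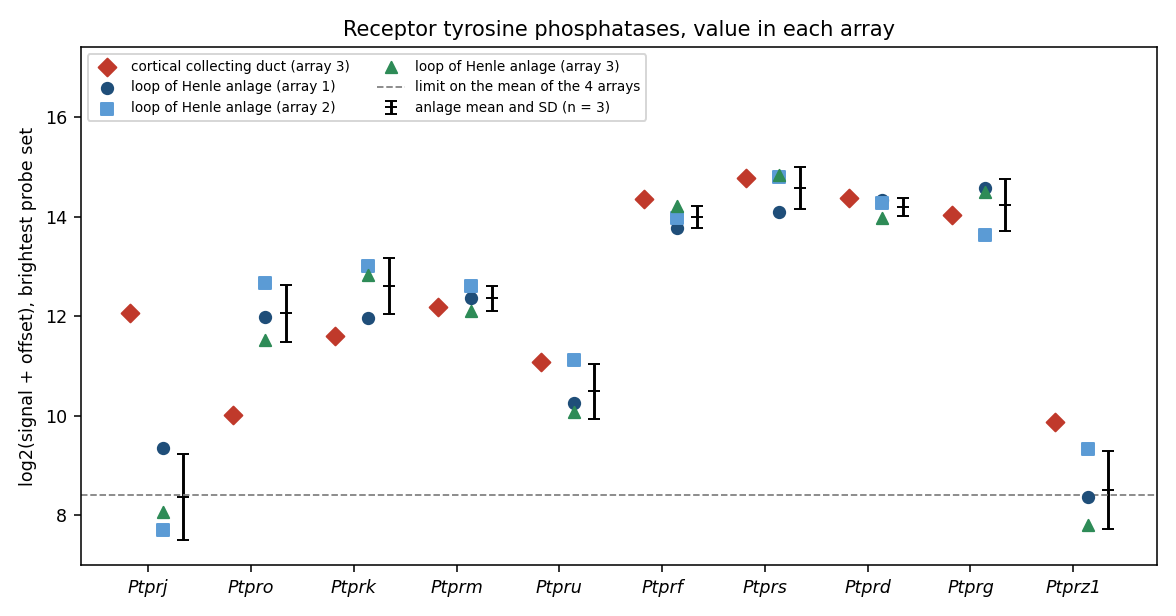
Log2 normalized signal of the brightest probe set (y axis) of each receptor phosphatase gene (x axis) in the collecting duct array (diamond, left) and the 3 anlage arrays (right), with the anlage mean and SD as a bar and the 8.416 limit on the mean of the 4 arrays as a dashed line. Ptprj in the collecting duct (12.06) lay above all anlage values and Ptpro (10.02) below all of them, while most other genes lay within or close to the anlage range.

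Taking the 10 genes together, 4 lay above all 3 anlage arrays (Ptprj, Ptprz1, Ptprf and Ptprd) and 2 below (Ptpro and Ptprk), in a comparison where 17.3% of all tested genes lay above, 24.3% below and 41.6% on either side. The other 4 lay within the anlage range. Scaled to a common median, 2 lay above (Ptprj and Ptprz1) and 2 below (Ptpro and Ptprg). With the values as deposited, 3 lay above (Ptprj, Ptprz1 and Ptpru) and 2 below (Ptpro and Ptprk). Under both settings Ptprf and Ptprd lay within the anlage range. A difference of at least 2-fold was present in 3 of the 10, Ptprj, Ptpro and Ptprz1, and in 11.6% of tested genes. The median difference of the members was 0.19, against −0.06 over all tested genes. Because the genes were chosen on this comparison, nothing is read from these shares.

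Among the MAM-domain phosphatases, which bind through their extracellular parts and associate with cadherins and catenins, Ptprk had the lowest difference. Its brightest probe set, 1423278_at, read 11.61 in the collecting duct, against 11.97, 13.01 and 12.84 in anlage arrays 1, 2 and 3. The collecting duct array was the lowest of the 4, with a gap of −0.36 to anlage array 1, and the difference was −0.99 from an anlage mean of 12.61 ± 0.56 (SD, n = 3). When the arrays were scaled to a common median instead of being quantile normalized, the groups overlapped. In the next brightest probe set, 1423277_at, they overlapped as well, at 10.79 in the collecting duct and 10.19, 12.19 and 11.84 in the anlage arrays. The last probe set at or above the limit, 1441277_s_at, differed by 0.55, and 4 further probe sets of Ptprk were dim. The mean of all 7 differed by −0.36.

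The collecting duct values of Ptprm and Ptpru lay within the anlage range. Ptprm read 12.19 in the collecting duct, against 12.36, 12.60 and 12.11 in anlage arrays 1, 2 and 3. Its difference of −0.17 was smaller than the anlage SD of 0.25 (n = 3), and it had 1 probe set. Without anlage array 3 it lay below the other two, with a difference of −0.29. Ptpru read 11.08 in the collecting duct, against 10.26, 11.13 and 10.09 in the anlage arrays. The collecting duct value was close to that of anlage array 2, and the difference was 0.59 with an anlage SD of 0.56 (n = 3). Ptpru lay above all anlage arrays used with the values as deposited (difference 0.63), with its probe sets averaged (0.73) and without anlage array 2 (0.83).

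The LAR family members, receptors for heparan sulfate and chondroitin sulfate proteoglycans that bind liprins inside the cell, differed by 0.37 or less in their brightest probe sets. Ptprf, which encodes LAR itself, read 14.36 in the collecting duct, against 13.77, 13.98 and 14.21 in anlage arrays 1, 2 and 3. Ptprs read 14.77 in the collecting duct, against 14.09, 14.79 and 14.83. Ptprd read 14.37 in the collecting duct, against 14.33, 14.27 and 13.98. For Ptprf and Ptprd the collecting duct array was the highest, by 0.15 and 0.04, and for Ptprs it lay within the anlage range. The differences were 0.37, 0.20 and 0.18, and that of Ptprd became −0.18 with the arrays scaled to a common median, where that of Ptprf was 0.01. The anlage SD of Ptprd, 0.19, and of Ptprf, 0.22 (n = 3 each), were smaller than those of most tested genes, only 12.9% and 17.3% of which had a smaller one. The median anlage SD over all tested genes was 0.46.

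Of the phosphatases with a domain like carbonic anhydrase, Ptprz1 was highest in the collecting duct and Ptprg lay within the anlage range in its brightest probe set. Ptprz1, known from neural and glial cells as a receptor for pleiotrophin, read 9.87 in probe set 1427019_at in the collecting duct, against 8.38, 9.34 and 7.80 in anlage arrays 1, 2 and 3. The collecting duct value was the highest, by 0.53, and the difference was 1.37 from an anlage mean of 8.51 ± 0.78 (SD, n = 3), close to the dim limit. The next probe set, 1452284_at, read 8.77 in the collecting duct, against 8.24, 9.06 and 8.28, and the groups overlapped. Over the anlage arrays alone this second probe set was the brighter one, at 8.53 against 8.51. Across offsets the difference of the brightest probe set ranged from 0.91 to 1.66. Nerve and glia markers, of which 4 of 9 listed were tested, had a median difference of −0.04. Of these, 0 lay above and 1 below all anlage arrays, where 17.3% and 24.3% of all tested genes did so. Tubb3 and Th were under the limit, Tubb3 above all anlage arrays (difference 0.87) and Th below all (−1.14). The summed normalized signal of the nerve and glia markers was 1360 in the collecting duct, against 877 to 2568 signal units in the anlage arrays.

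Ptprg, a receptor for contactins, read 14.04 in its brightest probe set in the collecting duct, against 14.57, 13.63 and 14.51 in anlage arrays 1, 2 and 3. This probe set, 1434360_s_at, is of a type that can read transcripts of more than 1 gene. The groups overlapped and the difference was −0.20. Ptprg lay below all anlage arrays used in 3 of the 10 alternatives, with the arrays scaled to a common median (−0.59), with its probe sets averaged (−0.57) and without anlage array 2 (−0.51). In a dimmer probe set, 1456070_at, Ptprg read 8.61 in the collecting duct, against 9.88, 10.63 and 9.74, and the collecting duct array was the lowest, with a difference of −1.47. In 1429691_at it was again the lowest (difference −0.60), and in 1450122_at the difference was 0.01.

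**Figure D2:**
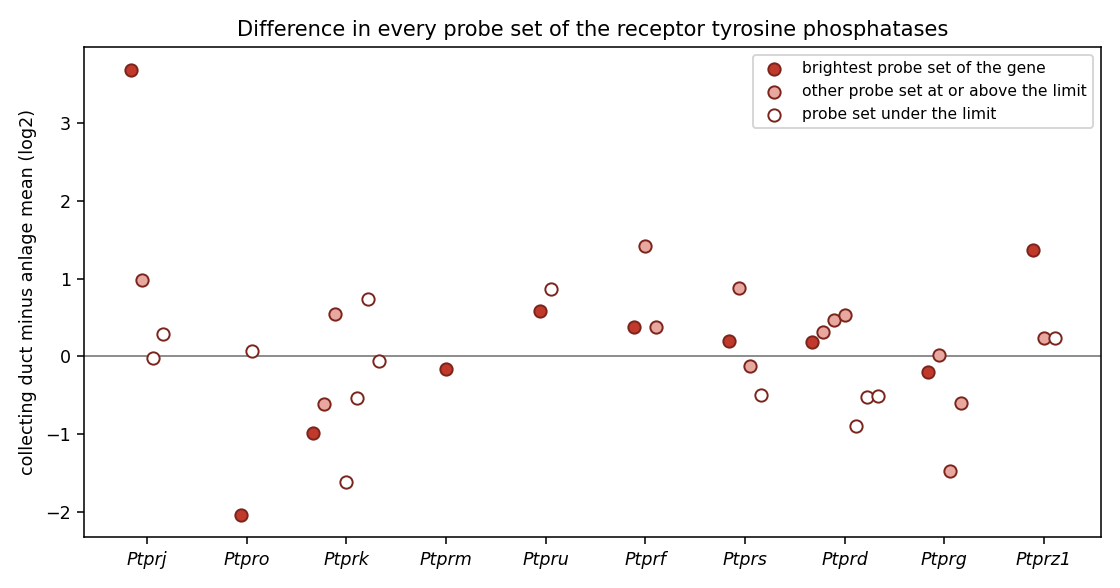
Log2 difference, collecting duct minus anlage mean (y axis), of all 37 probe sets of the 10 genes (x axis), filled dark for the brightest probe set of a gene, light for others at or above the 8.416 limit and open for those under it. The value of 3.69 for Ptprj comes from 1 probe set, and the probe sets of Ptprk and Ptprs at or above the limit lie on both sides of 0.

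Probe sets of the same gene often disagreed. Of the 37 probe sets, 24 averaged at or above the limit and 13 lay under it. Of the 24, 4 lay above all 3 anlage arrays and 4 below, where 17.5% and 22.5% of all 22499 such probe sets did so, 40% together. The disagreement was large within the LAR family. Probe set 1420843_at of Ptprf read 14.55 in the collecting duct, against 14.95, 11.21 and 13.23 in anlage arrays 1, 2 and 3, while 1420842_at of the same gene spanned 0.44 across the anlage arrays. Probe set 1436855_at of Ptprs read 10.003 in the collecting duct, against 10.80, 8.04 and 8.55. Probe set 1424886_at of Ptprd read 13.05 in the collecting duct, against 13.70, 11.57 and 12.49. In all 3, anlage array 1 was the highest, the collecting duct array came next and anlage array 2 was the lowest. Not all LAR family probe sets were ordered in this way. Probe set 1435537_at of Ptprd read 13.02 in the collecting duct, against 12.11, 13.63 and 12.39, so that anlage array 2 was the highest. Probe set 1426795_at of Ptprs read 9.11 in the collecting duct, against 10.19, 8.06 and 9.44.

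That order, anlage array 1 over the collecting duct over anlage array 3 over anlage array 2, is the inverse of the order of the Gapdh 3' to 5' ratios. The ratios of the beta-actin control ranked the arrays as Gapdh did. For the transferrin receptor control the collecting duct (1.38) came under anlage array 1 (1.42). The order of the probe set values was picked out after they had been seen. It was present in 6 of the 24 member probe sets at or above the limit, from 4 genes (Ptprk, Ptprf, Ptprs and Ptprd), and in 10.7% of all 22499 such probe sets. None of the 6 was the brightest of its gene, so they are 6 of the 14 dimmer probe sets of the 10 genes, where 15.2% of all dimmer probe sets and 7.17% of the brightest ones had that order. In the brightest probe sets of Ptprj, Ptprz1, Ptprf and Ptprd the collecting duct array was the highest of the 4. In those of Ptpro and Ptprk it was the lowest. Among the anlage arrays alone, Ptprj kept the order of array 1 over 3 over 2, at 9.35, 8.07 and 7.70, as did Ptprg. Ptpro and Ptprz1 did not, anlage array 2 being the highest of the anlage arrays for both. The part of transcript length in these values was not tested.

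**Figure D3:**
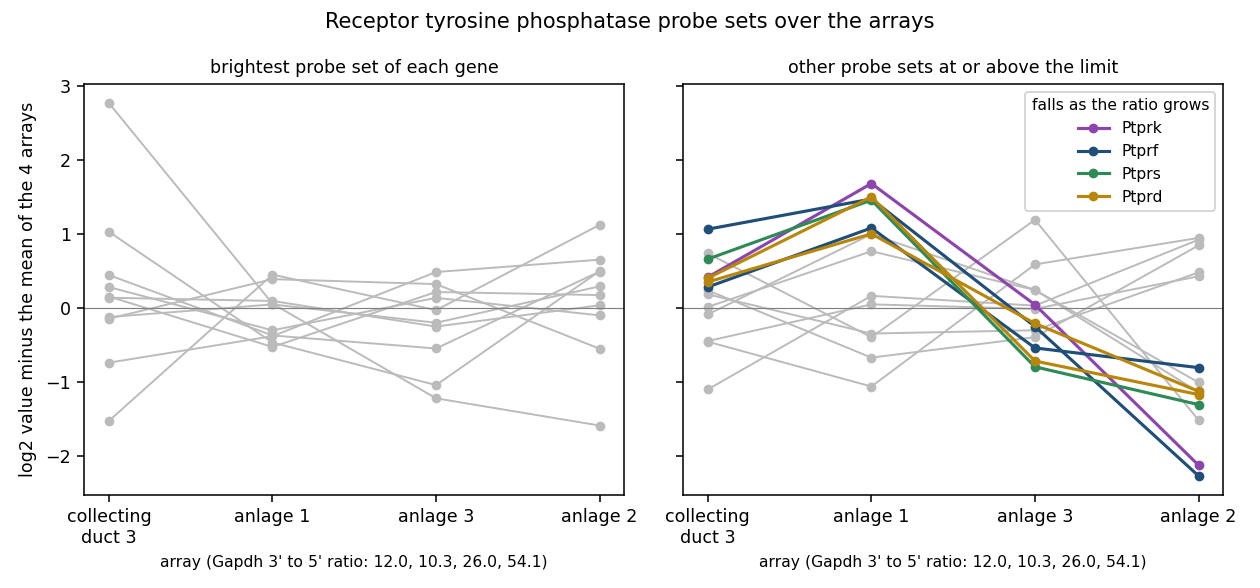
Log2 value minus the mean of the 4 arrays (y axis) for member probe sets at or above the limit, the brightest of each gene on the left and the others on the right, over the collecting duct array and then the anlage arrays in order of rising Gapdh 3' to 5' ratio (x axis). The 6 coloured lines, of Ptprk, Ptprf, Ptprs and Ptprd, are highest in anlage array 1, next in the collecting duct, then anlage array 3, and lowest in anlage array 2, and all 6 are on the right.

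The genes with the profiles nearest to Ptprj and Ptpro over the 4 arrays were found by the Euclidean distance between log2 values, each gene centred on its own mean. For Ptprj the 4 nearest were Slco4c1 (distance 0.30), Hacd4 (0.62), Glb1l2 (0.69) and Gpr63 (0.94). Slco4c1, an organic anion transporter, read 12.01 in the collecting duct, against 9.18, 7.46 and 8.23 in anlage arrays 1, 2 and 3. For Ptpro the 4 nearest were Gm36529 (0.21), Gja4 (0.31), Mtfp1 (0.38) and Pex7 (0.40). Gja4, a gap junction protein of endothelium, read 8.01 in the collecting duct, against 9.82, 10.33 and 9.58. With 4 arrays such nearness is a description only.

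Among receptor-type phosphatases outside the 10 genes, 4 of 11 listed were tested and 1 separated. Ptprb, the phosphatase of vascular endothelium, read 8.61 in the collecting duct, against 9.90, 10.78 and 9.34 in anlage arrays 1, 2 and 3. It lay below all 3, with a difference of −1.39. All 8 tested endothelial markers had a negative difference too, and 5 lay below all 3 anlage arrays, as 24.3% of all tested genes did. Their summed normalized signal was 3768 in the collecting duct, against 7162 to 16427 signal units in the anlage arrays. The part of vessel RNA in the Ptprb value was not tested. Ptpra, Ptpre and Ptprv lay within the anlage range, and Ptprc, which marks leukocytes, was under the limit. Leukocyte markers had a median difference of −0.58, with 1 of 6 tested above and 3 below all anlage arrays, where 17.3% and 24.3% of all tested genes lay.

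Phosphatases without a membrane span lay on both sides. Of 13 tested, 3 lay above and 3 below all anlage arrays, where 17.3% and 24.3% of all tested genes did so, with a median difference of 0.04. The higher ones were Ptpn18, Ptpn2 and Ptpn11, which encodes the kinase signalling mediator SHP2, by 0.52, 0.43 and 0.31. Ptpn11 read 14.18 in the collecting duct, against 13.72, 13.77 and 14.13. The lower ones were Ptpn3 (−0.95), Ptpn23 (−0.94) and Ptpn21 (−0.24). Limma called 0 of these 13 genes and 0 of the partner genes that follow, as of all genes.

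Of 17 tested ligands and surface partners, 2 lay above and 6 below all anlage arrays, where 17.3% and 24.3% of all tested genes did so. Their median difference was −0.37, against −0.06 over all tested genes. Ptn, which encodes the Ptprz1 ligand pleiotrophin, read 12.00 in the collecting duct, against 12.05, 12.89 and 13.45 in anlage arrays 1, 2 and 3. Cntn1, a contactin bound by Ptprz1, read 8.03 in the collecting duct, against 9.12, 9.81 and 10.89. Mdk, Tnc and Ncam1, further ligands or partners of Ptprz1, lay within the anlage range. Gpc4, a heparan sulfate proteoglycan that binds Ptprs, read 12.53 in the collecting duct, against 13.89, 13.68 and 13.91, a difference of −1.29 with an anlage SD of 0.13 (n = 3). Cntn4, a contactin bound by Ptprg, differed by −1.19. On the other side Agrn, which encodes the heparan sulfate proteoglycan agrin, read 14.45 in the collecting duct, against 13.77, 13.85 and 13.98, and Lrfn4, a synaptic adhesion partner of the LAR family, differed by 0.79.

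Of 17 tested cytoplasmic partners of the LAR and MAM-domain families, 4 lay above and 1 below all anlage arrays, where 17.3% and 24.3% of all tested genes did so, with a median difference of 0.08. Abl1, a tyrosine kinase, read 13.24 in the collecting duct, against 12.49, 12.33 and 12.53 in anlage arrays 1, 2 and 3. Ppfibp2, a liprin beta, differed by 0.75 and the scaffold Caskin1 by 0.27. The focal adhesion docking protein Bcar1 differed by −0.47.

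Of 11 tested tyrosine kinases known as substrates of these enzymes, 1 lay above and 3 below all anlage arrays, where 17.3% and 24.3% of all tested genes did so. Kdr, which is also in the endothelial list, read 8.50 in the collecting duct, against 9.91, 10.22 and 11.42. Pdgfrb, which is also in the stroma list, differed by −1.48 and the insulin receptor Insr by −0.57. Of 9 stroma markers 0 lay above and 2 below all anlage arrays, beside the same 17.3% and 24.3% of all tested genes. The summed normalized signal of the stroma markers was 131541 in the collecting duct, against 130746 to 345967 signal units in the anlage arrays. The Src-family kinase Yes1 was higher, at 10.59 in the collecting duct, against 9.93, 8.73 and 9.87. Met, a substrate of Ptprj, lay within the anlage range and differed by −0.54, and Ret, the receptor of ureteric branching, by 0.14.

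**Figure D4:**
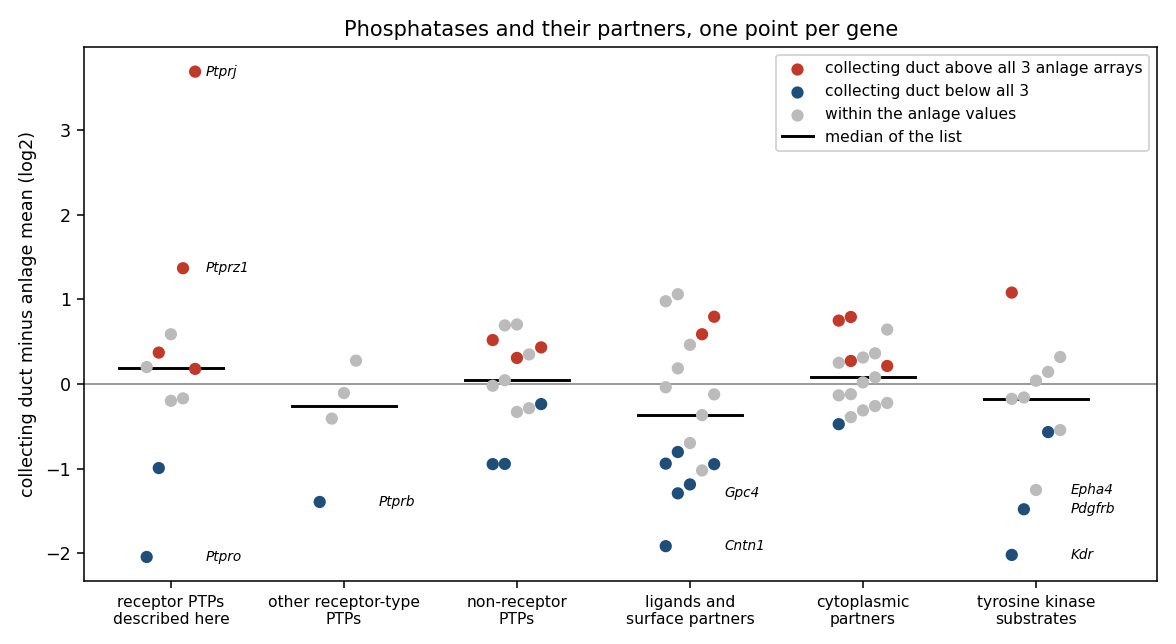
Log2 difference, collecting duct minus anlage mean (y axis), of each tested gene in the 10 receptor phosphatases and in 5 lists of related genes (x axis), red where the collecting duct lay above all 3 anlage arrays, blue where below and grey where within, with the list median as a bar. Medians ran from −0.37 for ligands and surface partners to 0.19 for the 10 genes, and Ptprj at 3.69 was the highest point.

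**Figure D5:**
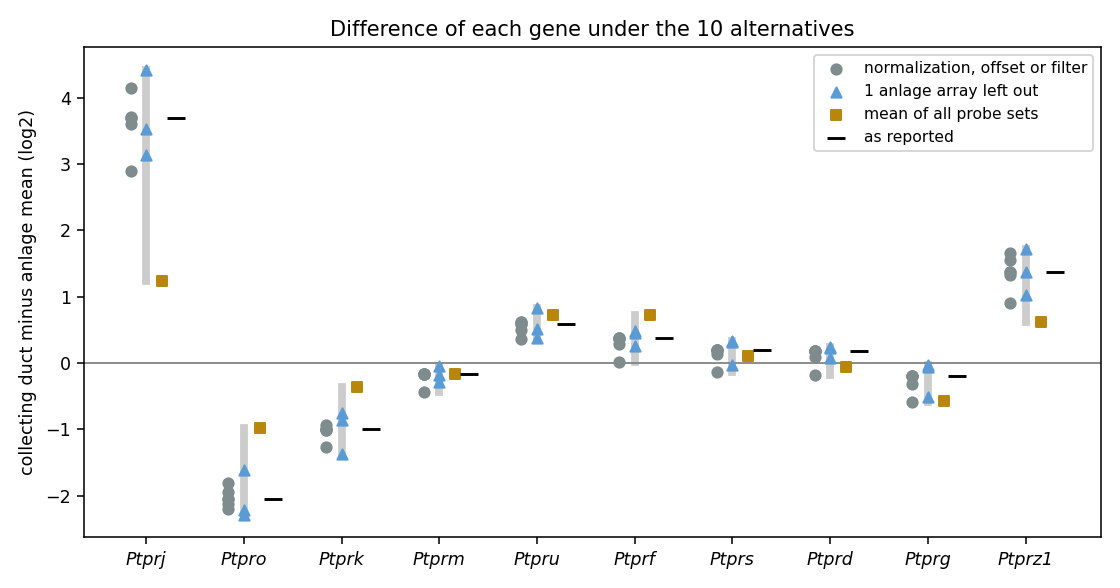
Log2 difference, collecting duct minus anlage mean (y axis), of each gene (x axis) as reported and under 10 alternatives in normalization, offset, filter, probe set choice and arrays used. Ptprj ranged from 1.23 to 4.42 and Ptpro from −2.29 to −0.98, each with 1 sign throughout, while Ptprs and Ptprd lay on both sides of 0.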

How the data were processed

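The authors deposited 1 linear intensity value per probe set and array, computed in GCOS according to the submitters' processing notes. Which GCOS version and algorithm they ran is not given in the sources. Each array had already been scaled, to a mean of 1500 without the top and bottom 2% of values, while medians ran from 206.9 to 526.5 signal units. Arrays were then quantile normalized and transformed as log2(signal + 109.6), with the 25th percentile of the shared distribution as the offset, which understates the change of dim genes. After 64 control probe sets were left out, 34945 of 45037 had 1 gene symbol, 932 had several and 9160 had none in the platform table, and 34741 of the first matched RefSeq by Entrez number. A gene was represented by its brightest probe set and tested if its mean was at or above 8.416, the 40th percentile of probe sets. All genes were fitted with limma (version 3.58.1, R 4.3.3; two-sided, eBayes with trend, Benjamini-Hochberg adjustment), leaving 2 residual degrees of freedom, which the anlage arrays supply. The fit was also run on simulated data with planted changes, and nothing here rests on that run. Exact permutation of 1 array against 3 has a smallest possible p of 0.25 and was not run. The number of arrays limits the precision.

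The members and gene lists were chosen with earlier results of these data known. Named were the 10 members, listed genes outside the anlage range (up to 3 per direction and list), the 2 most different of each marker list where a result turned on them, and the 4 genes nearest to Ptprj and to Ptpro. Ptpra, Ptpre, Ptprv, Ptprc, Nphs1, Podxl, Tubb3, Th, Ptn, Mdk, Tnc, Ncam1, Cdkn1c, Calb1, Met and Ret were named after their values were seen. Alternatives covered the normalization, offset, probe set choice, dim filter, intensity trend and each anlage array left out, with normalization and probe set choice made anew. Lists were described by counts and medians only. No arrays shared more than 3 identical values.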

Additional observations from a re-analysis of the deposited data

How the results depend on the processing

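With each gene's probe sets averaged in place of taking the brightest, the difference of Ptprj was 1.23 in place of 3.69 and that of Ptpro −0.98 in place of −2.04, that of Ptprd turned to −0.0652, and Ptprz1 averaged under the dim limit. With the arrays scaled to a common median, where the median of all tested genes was −0.24 in place of −0.06, the difference of Ptprd turned to −0.1796, and relative to that median it was 0.06. The cause of these changes was not tested. With the dim filter at the 60th percentile, Ptprj and Ptprz1 fell under the limit and were not tested, and 8 members remained. Computed without regard to that limit, the values of Ptprj lay above and those of Ptpro below all anlage arrays used under the 10 alternatives. Leaving out each anlage array gave 3.14 to 4.42 for Ptprj and −2.29 to −1.61 for Ptpro. In each case 7 members lay outside the anlage values, in place of 6. With fewer anlage arrays a value lies outside them more readily, so these counts say nothing about stability. The matching share over all tested genes is not given for these settings. The genes called by limma numbered 0 to 14 with an array left out, the 14 without anlage array 2, and 0 under the other alternatives run. At an unadjusted p under 0.05 there were 1401 without anlage array 1 and 192 without array 3, against 431. Of 80 recomputed differences of the other 8 members, 74 moved by no more than the anlage SD, 4 moved by more with the same sign and 2, both of Ptprd, changed sign. Among the 74, Ptprs changed sign in 2. With 1 collecting duct array, no value here shows how far collecting duct samples differ among themselves. No paired analysis was possible because the structures share 1 replicate number only.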

Other observations

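All 4 tested receptor-type phosphatases outside the 10 genes (Ptpra, Ptprb, Ptpre and Ptprv) were highest in anlage array 2, as were 39.0% of all tested genes. Ptpre, which exists in membrane-bound and cytoplasmic forms, read 8.48 in the collecting duct, against 8.08, 10.38 and 8.22 in anlage arrays 1, 2 and 3. Ptprv read 9.28 in the collecting duct, against 8.99, 9.92 and 8.09. Ptpre and Ptprv were chosen after their values were seen.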
